A study of Mus musculus with 29 samples.

Results

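Mecom, Hlf, Prdm16, Meis1, Gfi1, Etv6, Hmga2, Mycn and Myc encode nuclear factors that are known for their part in the self-renewal of hematopoietic stem cells (HSC). These 9 genes were taken by symbol from the 30025 genes of an RNA-Seq table. Their levels are described in 29 libraries from mouse bone marrow, by genotype and cell population.

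Wild-type (WT) mice and mice that carry a germ line deletion of an interval of chromosome band 5A3 on 1 allele (5A3+/del) were compared, as a model of the loss of chromosome 7q22 in myelodysplastic syndrome. Both genotypes were on the C57BL/6J background and were 12.42 to 13.85 weeks old. The deletion is in every cell of a 5A3+/del mouse, so effects within blood cells and of the other tissues cannot be told apart. From each of 5 WT and 5 5A3+/del mice, c-kit+ lineage- Sca-1+ CD41- CD48- cells were sorted by CD150, the product of Slamf1, into CD150hi HSC, CD150lo HSC and CD150neg multipotent progenitors (MPP). The labels call the CD150neg cells HSC. The 29 libraries include 4 of 5A3+/del CD150neg MPP and 5 of each other group. A code in the labels links libraries of different populations and was taken to mark the mouse. Populations could thus be compared within mice, whereas genotypes come from different mice.

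A stem cell divides either to renew itself or to give rise to progenitors, and transcription factors hold the balance between these outcomes. Mecom and Prdm16 are related zinc finger proteins with a PR domain, Meis1 is a homeodomain protein that binds DNA with Pbx and Hox partners, Hlf is a PAR bZIP factor, and Hmga2 is an AT-hook chromatin protein that is prominent in fetal HSC and is restrained by let-7 microRNAs. Gfi1 and Etv6 are repressors of the zinc finger and ETS families, and Gfi1 is known to hold HSC in quiescence. Myc and Mycn bind E-boxes with their partner Max and drive cell growth.

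Libraries held 21229490 to 38797569 fragments (median 26967107), and all 9 factors had an FPKM, a level scaled to exon length and library size, of at least 1 in 29 of 29 libraries. Between 362 fragments, for Gfi1, and 64920 fragments, for Hlf, underlie a single value, and these numbers cover counting error only because the cDNA was amplified without molecular identifiers. Slamf1 had an FPKM of 9.97 to 22.6 in CD150hi HSC, 0.180 to 2.64 in CD150lo HSC and 0.00951 to 0.296 in CD150neg MPP, in the order of the sort. Mll5, a gene of the deleted interval, had 37.3 to 58.2 in WT and 19.9 to 32.4 in 5A3+/del libraries. The 3 libraries of WT replicate 3 stood apart by Xist, with an FPKM of 234 to 319 against at most 0.470 in the other 26 libraries, and the counts of factors and the differences called in WT mice are therefore also given without this mouse. Summed markers of B cells had an FPKM of 6.75 to 32.2 over 6 genes and overlapped between all groups. Those of T cells had 0.285 to 4.92 over 5 genes, and in 5A3+/del mice they lay higher in CD150neg MPP (1.92 to 4.61) than in CD150hi HSC (0.409 to 1.54). Cd4 alone had an FPKM of 1.55 to 4.51 and 0.337 to 1.34 in these groups. The median of each other T cell gene was at most 0.129 there, and that of Cd3g was higher in CD150hi HSC. Pax5, Cd3e and Cd8a were listed at 0 in some libraries of every group, whereas Cd79b (5.43 to 31.7) and Cd4 (0.285 to 4.89) were above 0 in every library. Markers of granulocytes and monocytes, summed over 7 genes, overlapped between the WT populations (25.0 to 81.2, 40.9 to 87.0 and 33.8 to 58.8 from CD150hi HSC to CD150neg MPP). In 5A3+/del mice they moved with the comparison of CD150hi HSC (24.6 to 45.5) and CD150neg MPP (48.7 to 84.3), which did not overlap. The T cell sum, most of it Cd4 in CD150neg MPP, did not overlap there either. Whether other cell types in the sort had a part in the differences described here was not tested.

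None of the 9 genes lies in the deleted interval, which is bordered in mm9 by Fbxl13 and Srpk2 (chromosome 5, 20989665 to 23182266 between the outer ends). Gfi1 lies on the same chromosome at 108145674 to 108155056, on the minus strand. Mecom lies on chromosome 3 (29850221 to 30446930, minus strand), Prdm16 on chromosome 4 (153690234 to 154010982, minus strand) and Mycn on chromosome 12 (12942902 to 12948720, minus strand). In the same build, Meis1 (18780433 to 18918961) and Hlf (90197849 to 90252231) lie on the minus strand of chromosome 11, Hmga2 (119798331 to 119913525) on that of chromosome 10, and Etv6 (133985718 to 134220176) and Myc (61816946 to 61821929) on the plus strands of chromosomes 6 and 15. In the GENCODE annotation, 6 of the 9 overlap another annotated gene, mostly on the opposite strand, while Hlf, Mycn and Myc overlap none. Whether reads were counted by strand is not given in the sources used here, so reads of such partners may not have been separated. The partners with the highest mean FPKM were Gm16141 at Meis1 (14.2) and Gm17089 at Etv6 (13.7).

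RefSeq promoter sequences of 300 bases (250 before to 50 after a start, build GRCm38.p6) were found for 8 of the 9 factors, and Myc had no entry. The promoters of Mecom, Prdm16 and Mycn, the factors with the largest positive differences between CD150hi HSC and CD150neg MPP of WT mice, and of Gfi1, which ran the other way, are shown 5′ to 3′, together with that of Gfi1b, the close relative of Gfi1. Mecom has 2 listed starts that are 496555 bp apart, and the upstream start is shown. FPKM per gene cannot separate these starts. In the first pair of sequences, capitals mark the run of bases that Mecom and Prdm16 share. In Mycn they mark TGACAG, the core bound by Meis proteins, and in Gfi1 and Gfi1b they mark AAATCA, a stretch of the site bound by Gfi1 proteins. The Gfi1 window does not hold these letters on either strand, and shorter forms were not searched for.
Mecom, chr3:30509710-30510009, minus strand: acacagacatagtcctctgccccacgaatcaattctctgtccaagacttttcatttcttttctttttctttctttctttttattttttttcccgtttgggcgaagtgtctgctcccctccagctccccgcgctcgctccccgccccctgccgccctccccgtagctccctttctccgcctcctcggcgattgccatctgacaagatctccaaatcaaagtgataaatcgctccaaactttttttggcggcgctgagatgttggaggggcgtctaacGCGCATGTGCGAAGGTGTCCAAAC
Prdm16, chr4:154636824-154637123, minus strand: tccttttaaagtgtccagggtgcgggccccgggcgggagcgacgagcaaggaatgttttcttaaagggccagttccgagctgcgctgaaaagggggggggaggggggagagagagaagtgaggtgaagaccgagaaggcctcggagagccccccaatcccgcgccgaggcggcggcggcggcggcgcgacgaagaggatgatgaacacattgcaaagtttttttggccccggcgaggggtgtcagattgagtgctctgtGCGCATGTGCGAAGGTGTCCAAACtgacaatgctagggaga
Mycn, chr12:12941787-12942086, minus strand: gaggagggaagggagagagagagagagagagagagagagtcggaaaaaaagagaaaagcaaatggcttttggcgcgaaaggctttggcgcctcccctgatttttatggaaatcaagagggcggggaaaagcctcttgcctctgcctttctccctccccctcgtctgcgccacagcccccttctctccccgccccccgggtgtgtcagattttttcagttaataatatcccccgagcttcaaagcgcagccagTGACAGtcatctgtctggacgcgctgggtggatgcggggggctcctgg
Gfi1, chr5:107725756-107726055, minus strand: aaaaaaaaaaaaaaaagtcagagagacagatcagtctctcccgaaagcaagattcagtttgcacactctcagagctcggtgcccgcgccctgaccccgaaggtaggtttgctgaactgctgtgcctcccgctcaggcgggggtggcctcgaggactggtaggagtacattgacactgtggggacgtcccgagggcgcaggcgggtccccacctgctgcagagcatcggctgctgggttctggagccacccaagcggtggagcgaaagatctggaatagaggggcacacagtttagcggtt
Gfi1b, chr2:28621933-28622232, minus strand: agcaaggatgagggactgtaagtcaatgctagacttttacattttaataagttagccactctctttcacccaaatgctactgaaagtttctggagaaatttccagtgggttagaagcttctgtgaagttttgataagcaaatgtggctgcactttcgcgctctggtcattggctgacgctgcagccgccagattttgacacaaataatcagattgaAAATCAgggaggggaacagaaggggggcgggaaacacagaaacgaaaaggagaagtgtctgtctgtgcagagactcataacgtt

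Mecom and Prdm16 share a run of 24 bases in these windows, which lies 27 to 50 bases after the Mecom start and 10 to 33 bases after the Prdm16 start. Of the 32851 promoter sequences of the table, 2 hold this run on either strand, those of Mecom and Prdm16. Over 43 pairs of promoters of different factors, the next longest shared run was 12 bases. The Mecom window ends within the match. In mm9 the identical stretch goes on to 36 bases, at chromosome 3, 30408620 to 30408655, and chromosome 4, 154010938 to 154010973, where the annotation has untranslated exon sequence of both genes.

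Both strands of the promoters were searched for 6 short motifs. TGACAG was found in 19.2% of all promoter sequences, and among the factors at Mycn, from base 3 after the start, and at the downstream Mecom start. AAATCA (14.0% of all) was found at the upstream Mecom start, at Etv6 and on both strands at Mycn, and at Gfi1b. CCGGAA, the core of ETS factors such as Etv6 (14.9% of all), was found at Hlf, Meis1 and the downstream Gfi1 start. CACGTG, the E-box of Myc and Max (7.15% of all), and TTACGTAA, bound by PAR bZIP factors such as Hlf (0.119% of all), were found at none of these starts, and GATAAG, bound by Gata factors (7.44% of all), was found only at Gfi1b. A match describes letters in these windows only.

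To describe levels, deposited FPKM were transformed as log2(FPKM + 1), quantile normalized over all libraries and transformed back (normalized FPKM). Since FPKM is scaled to exon length, genes can be ordered, but only roughly. The cDNA was amplified, and reads of overlapping genes may not have been separated. In WT CD150hi HSC the order began with Hlf at 201 ± 30.8 (SD, n = 5 here and for each WT value), followed by Etv6 at 82.9 ± 7.53, Myc at 79.0 ± 9.40 and Meis1 at 73.3 ± 7.22, which did not differ beyond their spread. Mycn came next at 52.8 ± 12.2 and Mecom at 31.5 ± 2.78. Prdm16 at 12.5 ± 3.37 and Gfi1 at 9.28 ± 3.37 overlapped, and Hmga2 was lowest at 5.62 ± 0.788. The same genes stood at both ends in WT CD150neg MPP, with Hlf at 266 ± 38.5 and Hmga2 at 3.63 ± 0.907. Among the 15409 genes tested, the mean level of Hlf was at percentile 99.1 and that of Hmga2 at percentile 46.6.

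**Figure D1:**
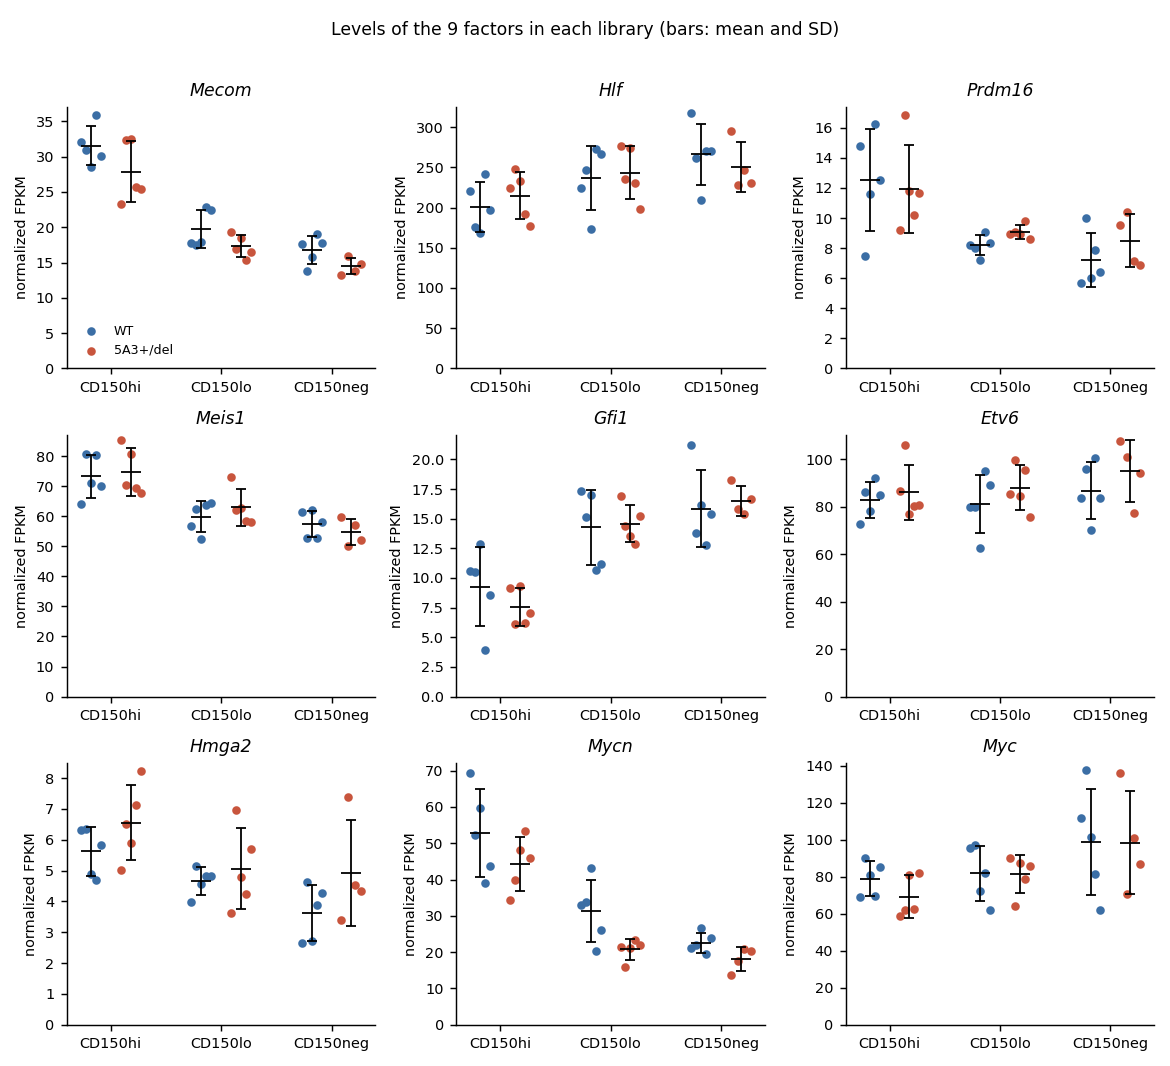
Normalized FPKM (linear axes from 0) of the 9 factors in each of the 29 libraries, by population and genotype, with WT in blue and 5A3+/del in red. Black bars give the mean and SD of 5 libraries, or 4 for 5A3+/del CD150neg MPP. Mecom and Mycn have their highest means and Gfi1 its lowest in CD150hi HSC of both genotypes, and the genotypes overlap within every population.

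The first comparison asked how the factors differ between the populations. Mecom, Mycn, Prdm16, Meis1 and Hmga2 were higher in CD150hi HSC than in CD150neg MPP of WT mice, and Gfi1 was lower. In 5A3+/del mice Mecom, Mycn and Meis1 were higher and Gfi1 lower. Differences were tested with limma in 1 fit of all libraries, two-sided, with Benjamini-Hochberg adjustment over 15409 genes and a threshold of 0.05, and are given as log2 differences of the normalized log2 values. Between CD150hi HSC and CD150neg MPP, 6 of the 9 factors passed in WT mice, where 10.0% of all genes did, and 4 of 9 passed in 5A3+/del mice, where 6.16% of all genes did. Without WT replicate 3, 5 of the 9 passed in WT mice, with log2 differences of 1.17 for Mycn, 0.89 for Mecom, 0.67 for Prdm16, 0.38 for Meis1 and -0.89 for Gfi1, and Hmga2 (0.49, limma adjusted p = 0.12) did not. Between CD150hi HSC and CD150lo HSC, 2 of 9 passed in WT mice (3.53% of all genes), with or without WT replicate 3 (without it, 0.66 for Mecom and 0.82 for Mycn), and 3 of 9 in 5A3+/del mice (3.18%). Between CD150lo HSC and CD150neg MPP none passed in either genotype, where 0.188% and 0.0389% of all genes did (29 and 6 genes). In this step limma gave an unadjusted p-value under 0.05 for 1 factor in WT, Mycn, where 8.75% of all genes had one, and for none in 5A3+/del mice, where 4.95% did. The median log2 difference of the 9 factors between CD150hi HSC and CD150neg MPP was 0.34 in WT and 0.38 in 5A3+/del mice, against -0.01 and 0.00 over all genes, and describes these factors without a test.

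Mycn showed the largest difference of the 9. Its normalized FPKM in WT CD150hi HSC was 69.3, 52.2, 59.7, 39.0 and 43.7 in replicates 1 to 5, and in CD150lo HSC of the same mice it was 33.1, 33.7, 43.3, 20.4 and 26.1. In WT CD150neg MPP it was 21.0, 22.04, 26.6, 19.4 and 23.8. Every WT CD150hi HSC library thus lay above every CD150neg MPP library, while replicate 3 of CD150lo HSC reached into the CD150hi range. The log2 difference between CD150hi HSC and CD150neg MPP was 1.17 (SE 0.18, limma adjusted p = 4.32e-05), and that between CD150hi HSC and CD150lo HSC was 0.75 (SE 0.18, adjusted p = 0.0137). The latter lost its call without WT replicate 1 (limma adjusted p = 0.0752) and without WT replicate 5 (adjusted p = 0.0544). Mycn in 5A3+/del mice was at 34.2, 40.0, 48.0, 53.4 and 46.0 in CD150hi HSC and at 21.5, 15.9, 21.2, 23.4 and 22.01 in CD150lo HSC. These groups did not overlap, with a log2 difference of 1.05 (SE 0.18, limma adjusted p = 0.000437). In 5A3+/del CD150neg MPP the values were 13.6, 17.6, 20.9 and 20.4, and the log2 difference from CD150hi HSC was 1.25 (SE 0.19, limma adjusted p = 5.33e-05).

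Mecom followed the same order. Its normalized FPKM was 32.0, 31.0, 28.6, 36.0 and 30.1 in WT CD150hi HSC, whereas it was 17.8, 17.5, 17.9, 22.9 and 22.5 in CD150lo HSC and 17.6, 13.8, 15.8, 19.0 and 17.8 in CD150neg MPP. The lowest CD150hi HSC library lay above the highest library of both other populations. The log2 difference was 0.66 from CD150lo HSC (SE 0.12, limma adjusted p = 0.000665) and 0.87 from CD150neg MPP (SE 0.12, adjusted p = 5.48e-06). The 5A3+/del values were 23.3, 32.4, 32.6, 25.7 and 25.4 in CD150hi HSC, 19.3, 17.0, 18.5, 15.4 and 16.5 in CD150lo HSC, and 13.3, 15.9, 13.9 and 14.8 in CD150neg MPP. CD150hi HSC again did not overlap the others, with log2 differences of 0.65 (SE 0.12, limma adjusted p = 0.000794) and 0.89 (SE 0.12, adjusted p = 1.32e-05). The 4 Mecom differences were called under each of the 19 alternatives tried for them.

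Prdm16, the relative of Mecom, had a wider spread. In WT CD150hi HSC it was at 14.8, 7.49, 11.6, 16.3 and 12.6, and in WT CD150neg MPP at 5.68, 10.0, 6.00, 7.85 and 6.39. Replicate 2 was the lowest of the first group and the highest of the second, so the groups overlapped although the log2 difference of 0.71 passed the test (SE 0.17, limma adjusted p = 0.00647). Without WT replicate 1 it did not pass (limma adjusted p = 0.0747). Without WT replicate 2 the log2 difference of Prdm16 from CD150lo HSC, 0.52 with an adjusted p of 0.102, rose to 0.67 and passed in limma (adjusted p = 0.0165). In 5A3+/del mice the difference from CD150neg MPP was 0.44 (SE 0.18, limma adjusted p = 0.186), with 11.9 ± 2.95 (SD, n = 5) in CD150hi HSC and 8.49 ± 1.75 (n = 4) in CD150neg MPP.

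Meis1 differed by little but with a narrow spread. Its normalized FPKM in WT mice was 64.0, 80.8, 70.9, 80.4 and 70.1 in CD150hi HSC and 61.3, 52.9, 62.2, 52.9 and 58.0 in CD150neg MPP, without overlap. The log2 difference was 0.34 (SE 0.10, limma adjusted p = 0.0282), and it lost its call without WT replicate 2, 4 or 5 (adjusted p = 0.172, 0.169 and 0.0687). The 5A3+/del mice had 85.4, 70.4, 80.8, 69.5 and 67.6 against 59.7, 50.1, 57.1 and 52.0, also without overlap, a log2 difference of 0.44 (SE 0.11, limma adjusted p = 0.0100). Here the call was lost without 5A3+/del replicate 2 or 3 (limma adjusted p = 0.0620 and 0.0609). On deposited FPKM, Meis1 passed in neither genotype (limma adjusted p = 0.0589 in WT and 0.0694 in 5A3+/del mice). The same held when only the groups compared were fitted (limma adjusted p = 0.107 and 0.145).

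Hmga2, the factor with the lowest level, passed in WT mice only just. Its WT values were 6.33, 6.36, 4.88, 4.70 and 5.83 in CD150hi HSC and 2.66, 4.64, 2.70, 3.89 and 4.26 in CD150neg MPP, with no overlap but a gap between 4.64 and 4.70. The log2 difference was 0.53 (SE 0.17, limma adjusted p = 0.0428). Of the 19 alternatives, 10 did not call it, among them leaving out any WT mouse, where the adjusted p-value reached 0.217 without WT replicate 1, and leaving out 5A3+/del replicate 3 or 4 (0.0652 and 0.0583). Hmga2 in 5A3+/del mice was at 6.56 ± 1.21 (SD, n = 5) in CD150hi HSC and 4.91 ± 1.72 (n = 4) in CD150neg MPP (log2 difference 0.38, SE 0.18, limma adjusted p = 0.268).

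Gfi1 ran opposite to these factors. It had a normalized FPKM of 10.6, 10.5, 12.9, 3.91 and 8.53 in WT CD150hi HSC, of 17.3, 15.2, 17.0, 10.7 and 11.2 in CD150lo HSC and of 21.2, 13.8, 16.1, 12.8 and 15.4 in CD150neg MPP. WT replicate 4 was the lowest in each population, and WT replicate 3 of CD150hi HSC lay within the CD150neg MPP range. The log2 difference between CD150hi HSC and CD150neg MPP was -0.77 (SE 0.20, limma adjusted p = 0.0124). That from CD150lo HSC was -0.63 with an adjusted p of 0.0968 in limma, and it passed with the mouse as a block (adjusted p = 0.0177). The 5A3+/del values were 9.19, 6.09, 9.28, 6.19 and 7.07 in CD150hi HSC, 16.9, 14.3, 13.6, 12.9 and 15.2 in CD150lo HSC and 18.2, 15.8, 15.4 and 16.6 in CD150neg MPP. CD150hi HSC lay below every library of both other populations, with log2 differences of -0.88 (SE 0.20, limma adjusted p = 0.0104) and -1.05 (SE 0.21, adjusted p = 0.00195). The first of these lost its call without 5A3+/del replicate 2, 4 or 5 (limma adjusted p = 0.0778, 0.0540 and 0.0611).

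Hlf, Etv6 and Myc did not pass in any of these comparisons. Hlf was at 221, 176, 169, 242 and 197 in WT CD150hi HSC and at 318, 262, 210, 270 and 270 in CD150neg MPP, and the groups overlapped. Its log2 difference was -0.40 (SE 0.14, limma adjusted p = 0.0750), and it passed with the mouse as a fixed block (adjusted p = 0.0158) or as a random effect (adjusted p = 0.0483). In 5A3+/del mice it was -0.22 (95% interval from -0.53 to 0.09). For Etv6, CD150hi HSC minus CD150neg MPP was -0.06 in WT (95% interval from -0.32 to 0.20) and by -0.14 in 5A3+/del mice (-0.42 to 0.14). The corresponding log2 differences of Myc were -0.28 (95% interval from -0.66 to 0.11) and -0.47 (-0.88 to -0.07, limma adjusted p = 0.190), with 62.1 to 138 normalized FPKM in WT and 70.7 to 136 in 5A3+/del CD150neg MPP.

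Of the 9 factors, 4 showed no overlap between CD150hi HSC and CD150neg MPP in WT mice (8.63% of all genes) and 4 in 5A3+/del mice (7.61%). Between CD150hi HSC and CD150lo HSC there were 1 in WT (4.04% of all genes), Mecom, and 3 in 5A3+/del mice (4.33%), Mecom, Mycn and Gfi1.

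Within mice, the direction was the same for all 10 mice in several factors. Mecom, Mycn and Meis1 were higher in CD150hi HSC than in CD150lo HSC of 10 of 10 mice, and Gfi1 was lower in 10 of 10 (exact two-sided sign-flip test over mice, p = 0.00195 for each, the smallest that 10 mice can give). Against CD150neg MPP the same held in 9 of 9 mice for each of the 4 genes (exact p = 0.00391, the smallest that 9 mice can give). Mecom was also higher in CD150lo HSC than in CD150neg MPP of 9 of 9 mice, by a mean log2 value of 0.24 ± 0.17 (SD, exact p = 0.00391), and Mycn in 8 of 9 (exact p = 0.0234). Hlf was lower in CD150hi HSC than in CD150neg MPP of 8 of 9 mice, by -0.29 ± 0.22 (exact p = 0.0117), and so was Myc in 8 of 9, by -0.39 ± 0.45 (exact p = 0.0273). Prdm16 was higher in CD150hi HSC than in CD150lo HSC of 9 of 10 mice (exact p = 0.00781), all but WT replicate 2, and Hmga2 in 8 of 10 (exact p = 0.00977). Etv6 was higher in CD150hi than in CD150lo HSC of 5 mice and lower in 5 (exact p = 0.975). These are p-values without adjustment out of 27 such tests, and the test was added after the data had been seen.

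**Figure D2:**
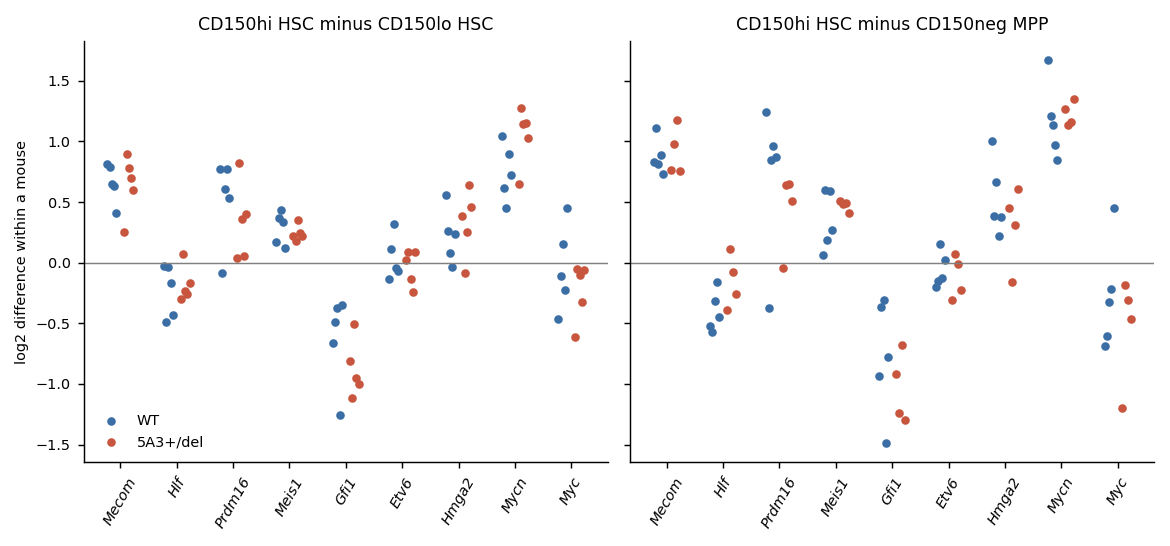
Log2 difference of normalized values within each mouse (vertical axis), CD150hi HSC minus CD150lo HSC on the left (10 mice) and minus CD150neg MPP on the right (9 mice), for each factor. Points are mice, WT in blue and 5A3+/del in red, and the line marks no difference. All points of Mecom, Mycn and Meis1 lie above the line and all points of Gfi1 below it in both panels.

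The second comparison asked whether the factors differ between 5A3+/del and WT cells. None of the 9 passed in any population. In limma, 0.156% of all genes passed the threshold in CD150hi HSC, while 0.0324% did in CD150lo HSC and 0.0454% did in CD150neg MPP. At an unadjusted p-value under 0.05 in limma there were 0, 1 and 0 of the 9 factors, and 13.1%, 6.87% and 4.27% of all genes. No factor was without overlap between genotypes, against 2.58%, 1.63% and 1.51% of all genes in these populations. The log2 differences of the 9 factors reached at most 0.23 in size in CD150hi HSC, whereas the limit was 0.54 in CD150lo HSC and 0.33 in CD150neg MPP. Leaving out single mice moved each of these limits. The values reached -0.45 for Gfi1 in CD150hi HSC (without WT replicate 4), -0.68 for Mycn in CD150lo HSC and 0.46 for Hmga2 in CD150neg MPP.

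Mycn was the factor with the unadjusted p-value under 0.05. In CD150lo HSC it was at 20.4 to 43.3 (median 33.1) in WT and at 15.9 to 23.4 (median 21.5) in 5A3+/del mice. Of the 5 WT libraries, replicate 4 lay within the 5A3+/del range and the others above it. The means were 31.3 ± 8.64 and 20.8 ± 2.89 (SD, n = 5 each), and the log2 difference was -0.54 (SE 0.18, limma unadjusted p = 0.00557, adjusted p = 0.367). An exact two-sided permutation test over mice gave p = 0.0397, without adjustment and among 27 tests, where 0.00794 is the smallest that the design allows. Without WT replicate 3 the log2 difference of Mycn was -0.41 (limma adjusted p = 0.839). In CD150hi HSC the mean was 52.8 ± 12.2 in WT and 44.3 ± 7.41 in 5A3+/del mice (log2 difference -0.23, 95% interval from -0.60 to 0.13), and in CD150neg MPP 22.6 ± 2.77 and 18.1 ± 3.32 (-0.31, from -0.70 to 0.08). The mean was lower in 5A3+/del mice in all 3 populations, and none of these differences passed the test over all genes. The 3 populations were taken to come from the same mice and are not independent, here and for the factors below.

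Mecom had a lower mean in 5A3+/del mice in all 3 populations as well, with a log2 difference of -0.18 in CD150hi HSC (95% interval from -0.42 to 0.05), of -0.17 in CD150lo HSC (-0.41 to 0.07) and of -0.20 in CD150neg MPP (-0.45 to 0.05). All these intervals include 0, and the groups overlapped. Prdm16 was at 8.18 ± 0.667 in WT and 9.07 ± 0.437 in 5A3+/del CD150lo HSC (n = 5 each), for which the exact permutation test gave an unadjusted p of 0.0317 on normalized values and 0.151 on deposited FPKM, and limma an adjusted p of 0.964. Hmga2 had a higher mean in 5A3+/del mice in all 3 populations, most in CD150neg MPP, at 3.63 ± 0.907 in WT (n = 5) and 4.91 ± 1.72 (n = 4) in 5A3+/del mice (log2 difference 0.33, 95% interval from -0.03 to 0.70). Gfi1, on the chromosome of the deletion, differed by -0.20 in CD150hi HSC (95% interval from -0.62 to 0.21, -0.45 without WT replicate 4 and -0.07 without WT replicate 3), by 0.05 in CD150lo HSC and 0.07 in CD150neg MPP. For Hlf, Meis1, Etv6 and Myc, the direction changed between populations or between scalings, and the log2 differences ran from -0.19 to 0.13.

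**Figure D3:**
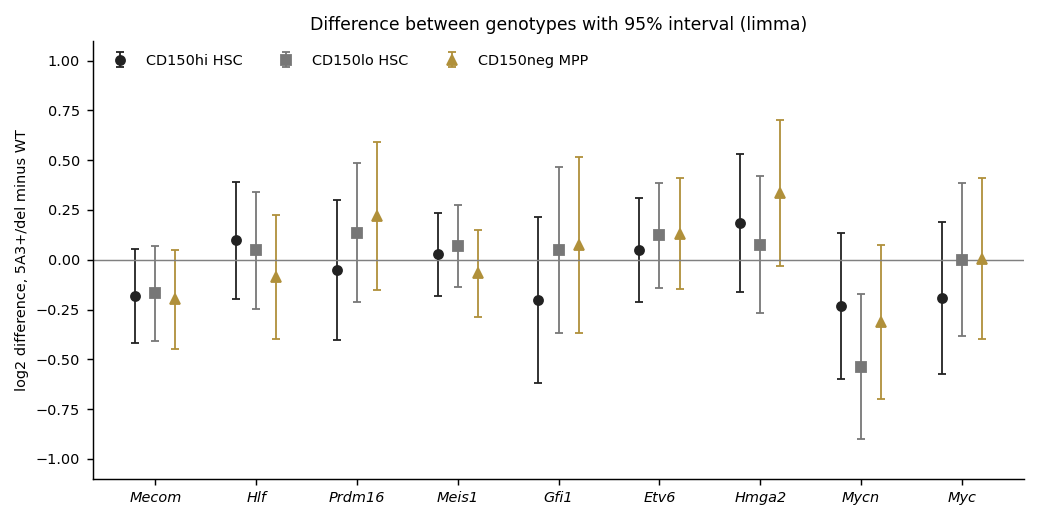
Log2 difference between 5A3+/del and WT mice (vertical axis) of each factor in CD150hi HSC (circles), CD150lo HSC (squares) and CD150neg MPP (triangles), with 95% intervals from limma. The interval of Mycn in CD150lo HSC, from -0.90 to -0.17, is the only one that leaves out 0, and its adjusted p-value was 0.367.

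The effect of the deletion was also compared between populations. None of the 9 factors and 0% of all genes passed the threshold in limma for the difference of the genotype effect between CD150hi HSC and CD150lo HSC, where 614 genes and none of the factors had an unadjusted p-value under 0.05. The same 0% was found between CD150lo HSC and CD150neg MPP (771 genes at an unadjusted p under 0.05) and between CD150hi HSC and CD150neg MPP (1227 genes), again with none of the factors. The smallest unadjusted p in limma was 0.238, for Mycn between CD150hi HSC and CD150lo HSC, with a difference of 0.30 (SE 0.25).

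Related genes did not all follow their factor. Of 13 tested family members, 2 passed between CD150hi HSC and CD150neg MPP in WT mice (10.0% of all genes) and 1 in 5A3+/del mice (6.16%). Their median log2 difference was 0.07 in WT and 0 in 5A3+/del mice. Gfi1b, which encodes the second Gfi1-type repressor and is known for its part in erythroid and megakaryocytic cells, was highest where Gfi1 was lowest. Its normalized FPKM in WT mice was 44.4, 24.3, 20.3, 31.7 and 34.6 in CD150hi HSC and 10.1, 6.26, 6.90, 7.48 and 5.92 in CD150neg MPP, without overlap. The log2 difference was 1.92 (SE 0.27, limma adjusted p = 1.88e-05), and Gfi1b was higher in CD150hi HSC in 9 of 9 mice, in each of which Gfi1 was lower. In 5A3+/del mice the log2 difference was 1.62 (SE 0.29, limma adjusted p = 0.000459). The mean of Gfi1b in CD150hi HSC was 31.1 ± 9.38 in WT and 18.3 ± 7.92 in 5A3+/del mice (n = 5 each), a log2 difference of -0.79 that did not pass over all genes (SE 0.27, limma adjusted p = 0.202).

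**Figure D4:**
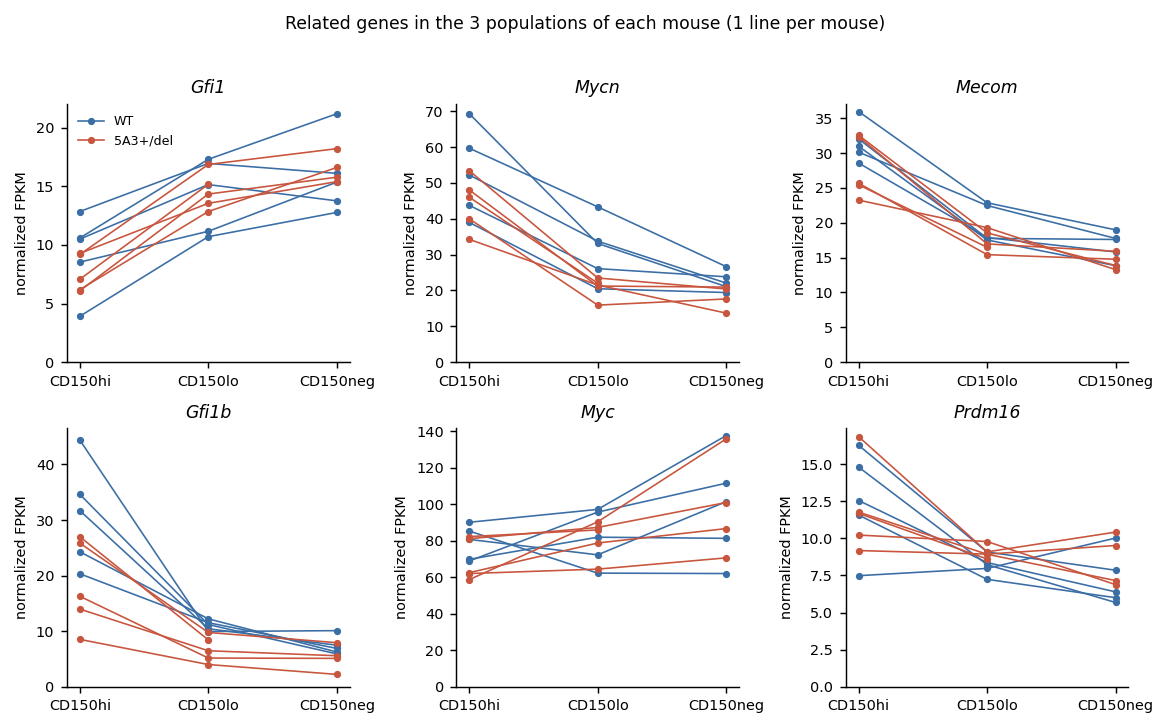
Normalized FPKM (linear axes from 0) of Gfi1 and Gfi1b, Mycn and Myc, and Mecom and Prdm16 in the 3 populations, with 1 line for each mouse, WT in blue and 5A3+/del in red. CD150neg MPP lie above CD150hi HSC in 9 of 9 mice for Gfi1 and in 8 of 9 for Myc, and below in 9 of 9 for Gfi1b and for Mycn.

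Partners and neighbours of the factors were taken from lists by function. Their counts between CD150hi HSC and CD150neg MPP stand beside 10.0% of all genes called in WT and 6.16% in 5A3+/del mice. Of 10 tested partners of Meis1, 3 rose in CD150hi HSC of WT mice, among them Pbx3 (log2 difference 1.04, SE 0.18, limma adjusted p = 0.000289) and Hoxb4 (0.75, SE 0.16, adjusted p = 0.00263). Pbx3 is a homeodomain protein that pairs with Meis1, and Hoxb4 is a homeobox factor known to expand HSC. In 5A3+/del mice 2 of the 10 rose, among them Pbx3, and 1 fell, Hoxa9 (-0.57, SE 0.17, limma adjusted p = 0.0388). Of the 3 tested genes around Hmga2 and let-7, 2 rose in WT mice. Igf2bp2, an RNA-binding protein, rose by 1.81 (SE 0.22, limma adjusted p = 1.56e-06) and Arid3a by 0.57 (adjusted p = 0.0497). Of these, 1 rose in 5A3+/del mice, Igf2bp2 (1.70, limma adjusted p = 1.28e-05), and Arid3a was at 0.44 (adjusted p = 0.239). Lin28a, Lin28b and Igf2bp1 stayed below the filter on low values. Of 13 corepressors that act with Gfi1, Etv6, Mecom and Prdm16, none passed in either genotype.

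Mycn differed between the populations, and its network and target genes were counted in the same way. Of 9 tested genes of the Myc-Max network, none passed between CD150hi HSC and CD150neg MPP in WT (10.0% of all genes) or 5A3+/del mice (6.16%). Their median log2 difference was -0.28 in WT and -0.10 in 5A3+/del mice, with the lowest p-value in WT mice for Mxd4, an antagonist of Myc (-0.63, SE 0.21, limma adjusted p = 0.0520). Of 17 Myc-responsive nucleolar and growth genes, 1 passed in WT (10.0% of all genes) and 1 in 5A3+/del mice (6.16%). In both it was Ldha, which encodes lactate dehydrogenase A (0.46, SE 0.12, limma adjusted p = 0.0146 in WT mice). The median of the 17 was -0.24 in WT and 0.06 in 5A3+/del mice, against -0.01 and 0.00 over all genes.

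Of 28 other HSC transcription factors, 11 passed between CD150hi HSC and CD150neg MPP of WT mice (10.0% of all genes), 6 higher and 5 lower. In 5A3+/del mice 8 passed (6.16% of all genes), 6 higher and 2 lower. Gata2, a master regulator of HSC, was higher in CD150hi HSC by 1.33 (SE 0.15, limma adjusted p = 6.41e-07) and Mllt3, known to maintain HSC, by 1.11 (SE 0.14, adjusted p = 3.36e-06). Ikzf1, a factor of lymphoid priming, was lower by -0.66 (SE 0.12, limma adjusted p = 0.000622). The median over the 28 was 0.24 in WT mice and 0.23 in 5A3+/del mice. Between genotypes in CD150hi HSC, none of the genes in the 7 lists passed in limma (0.156% of all genes).

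**Figure D5:**
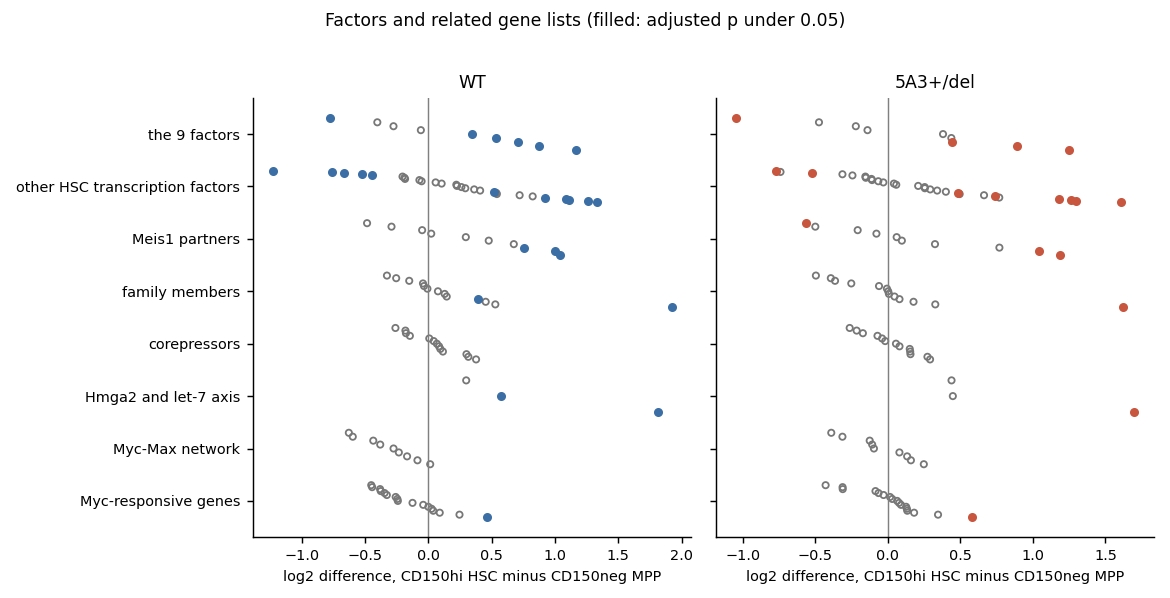
Log2 difference between CD150hi HSC and CD150neg MPP (horizontal axis) of the 9 factors and of each tested gene in 7 related lists, in WT mice on the left and 5A3+/del mice on the right. Each point is a gene, and filled points have an adjusted p-value under 0.05 in limma. In WT mice 6 of the 9 factors, 11 of 28 other HSC transcription factors and none of 9 Myc-Max network genes are filled.

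The factors also varied together across libraries, which is given as a description since the 29 libraries come from 10 mice and share the differences between populations. Mecom was correlated with Mycn (r = 0.795), Meis1 (r = 0.770) and Prdm16 (r = 0.674), and inversely with Gfi1 (r = -0.798). Mycn was inversely correlated with Hlf (r = -0.677), and Mycn and Myc had an r of -0.347. Over all genes tested, those with the pattern most like Mecom were Tenc1, Plxnc1 and Nckap1 (r from 0.904 to 0.910). For Mycn they were Slfn2, Ikzf4 and Esam (0.857 to 0.888), for Prdm16 Card10, Tfr2 and Neurl3 (0.805 to 0.856) and for Meis1 Plxdc2, Mllt3 and Gda (0.846 to 0.861). Gfi1 was most like Rgs2, Satb1 and Parp8 (0.817 to 0.882), and Hmga2 like Cd38, Hoxb5 and Lbp (0.708 to 0.719). The closest genes were Gm8995 for Hlf (0.831), Nfya for Myc (0.801) and Ewsr1 for Etv6 (0.740).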

How the data were processed

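RNA of CD150hi HSC, CD150lo HSC and CD150neg MPP was amplified and sequenced as paired-end libraries by the authors, mapped to mm9 and summarized as FPKM per gene. The processing notes name Bowtie 0.12.2 and HTSeq. The deposited FPKM are scaled to exon length and library size and are not quantile normalized. The mean exon coverage used in the paper is another quantity and was not computed here. Multiplying FPKM by annotated exon length showed steps of whole fragments for 98.4% to 98.9% of low values (tolerance 0.05), from which the fragments per library were taken.

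The 15409 genes that reached an FPKM of 1 in 4 or more libraries were transformed as log2(FPKM + 1), which understates the change of low genes, and quantile normalized. limma 3.58.1 in R 4.3.3 was fitted to 6 group means. In the within-mouse comparison, libraries with the same code in the labels were paired, since this code was taken to mark the animal. Deviations from group means of such pairs had correlations from -0.0418 to 0.235 (median 0.0786, over 0.1 in 10 of 28 pairs). The fit was tested on simulated data with independent noise for each library and planted genotype changes of 1 log2 unit. These changes are larger than the genotype differences of the factors. The test therefore does not bear on differences of that size or on libraries that share a mouse. Python 3.11.15 and pandas 2.3.3 read the tables.

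The members and the gene lists were chosen with earlier results of these data known. The text names all 9 members, the genes with the smallest p-values of each list and the 3 genes with the highest correlation to a member. Some genes that this rule names are not reported here. Gfi1b values per library, and Hoxa9 in 5A3+/del mice, were added after the values were seen. The alternatives were another pseudocount, other filters and scalings, other fits, age as a covariate, the mouse as a block and leaving out each mouse in turn.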

Additional observations from a re-analysis of the deposited data

How the results depend on the processing

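The absence of calls between genotypes held under every alternative run, and of the 15 member differences called between populations, 8 were called under every alternative and none of the 15 changed direction. Fitting only the groups compared lowered the members called in WT mice from 6 to 2 between CD150hi HSC and CD150neg MPP and from 2 to 1 between CD150hi HSC and CD150lo HSC. In 5A3+/del mice it took the call of Meis1 against CD150neg MPP. That fit has fewer libraries to estimate the spread and also repeats the filter and the normalization on them, and which of these mattered was not tested. On deposited FPKM, Meis1 lost its call against CD150neg MPP in both genotypes and Hmga2 in WT mice. Leaving out single mice gave 4 to 6 members between CD150hi HSC and CD150neg MPP of WT mice. Between CD150hi HSC and CD150lo HSC of WT mice it gave 1 to 3 members, 1 without WT replicate 1 or 5. With the replicate block (mouse as a fixed effect), 7 members were called between CD150hi HSC and CD150neg MPP of WT mice and 3 between CD150hi HSC and CD150lo HSC, by the calls of Hlf and Gfi1 given above, and no other call changed; with the mouse as a random effect (consensus correlation 0.0792) Hlf alone was added. The genotype contrasts cannot take the mouse as a fixed effect.

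Differences near 0 changed sign. Between genotypes in CD150hi HSC, median scaling and deposited FPKM gave -0.00822 and -0.0265 for Hlf, and deposited FPKM gave -0.00375 for Meis1 and -0.00697 for Etv6. In CD150lo HSC these scalings gave -0.0901 and -0.0731 for Hlf and -0.0918 and -0.0749 for Myc, and only the groups compared gave -0.000336 for Myc. The replicate block turned the difference between CD150lo HSC and CD150neg MPP of 5A3+/del mice to 0.0256 for Hlf and -0.00836 for Hmga2. Without single mice, the genotype difference in CD150hi HSC ranged from -0.210 to 0.0467 for Prdm16, -0.0214 to 0.0638 for Meis1 and -0.0269 to 0.0883 for Etv6. In CD150lo HSC it ranged from -0.0610 to 0.117 for Hlf, -0.0409 to 0.121 for Gfi1, -0.0298 to 0.166 for Hmga2 and -0.0928 to 0.0805 for Myc, and in CD150neg MPP from -0.161 to 0.150 for Myc. The population difference between CD150hi and CD150lo HSC ranged from -0.0334 to 0.0798 for Etv6 and -0.163 to 0.0668 for Myc in WT and from -0.0666 to 0.0179 for Etv6 in 5A3+/del mice. The population difference between CD150lo HSC and CD150neg MPP of 5A3+/del mice ranged from -0.0950 to 0.0271 for Hlf and -0.00606 to 0.197 for Prdm16. The cause was not tested. None of the 54 groups of 4 or 5 libraries of a member held a library apart from the others by Dixon's test. With so few libraries this test finds only a library far from the others, and some calls depended on single mice, as given above.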
